A study of Mus musculus with 18 samples.

Results

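The mitochondrial carriers of solute carrier family 25 (SLC25) were followed in the mouse heart after acute myocardial infarction (AMI). They were taken as every gene symbol made of Slc25a and a number, with an expression of at least 1 FPKM (fragments per kilobase of transcript, scaled to library size) in at least 1 mouse. This rule gave 39 of the 47 such symbols in the table, beside 13333 of 24419 symbols of any kind. AMI had been induced in 8-week-old C57BL/6 mice by tying off the proximal left anterior descending coronary artery under pentobarbital, and polyA RNA of the heart (the infarcted left ventricle, by the study's methods) had been sequenced. There were 3 mice in each of 6 groups. They were controls, called Mcon in the labels and sham below, and mice killed 10 min, 1 h, 6 h, 24 h or 72 h following the ligation. No transgene, drug or pooling of animals is named in the labels, and what surgery the control mice had is not given there. The samples were pieces of tissue, so a lower level may come from fewer cells of a type or from less RNA per cell, which cannot be told apart here.

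SLC25 proteins sit in the inner mitochondrial membrane, with few exceptions, and each exchanges or imports a small set of metabolites that cannot cross it unaided. The ADP/ATP carriers and the phosphate carrier feed ATP synthase and export its product, and other members move acylcarnitines for fat oxidation, the malate and aspartate of the redox shuttle, amino acids, cofactors, nucleotides and iron. Heart muscle is packed with mitochondria and lives largely on fatty acid oxidation, and its main ADP/ATP carrier is Slc25a4 (ANT1), while dividing and non-muscle cells use Slc25a5 (ANT2).

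The FPKM of the 18 mice were compared as deposited. Between mice of a group, Pearson's r of log2(FPKM + 1) across genes ran from 0.969 to 0.996, and the relative depth read from the steps of low values ran from 0.815 to 1.31 with the first sham mouse as the reference. All 8 cardiomyocyte markers were high in sham hearts, with a summed level of 55765 to 59296 FPKM, and this sum was 34611 to 44514 FPKM at 24 h and 20429 to 25375 FPKM at 72 h. The 6 macrophage and monocyte markers summed to 186 to 211 FPKM in sham mice, 483 to 694 FPKM at 24 h and 3424 to 4526 FPKM at 72 h, and the 7 fibroblast markers to 256 to 288 FPKM in sham mice and 3811 to 4930.2 FPKM at 72 h. The 5 neutrophil markers went from at most 4.99 FPKM in sham mice to 116 to 997 FPKM at 6 h, and the 5 markers of dividing cells from at most 0.913 FPKM to 72.6 to 106 FPKM at 72 h. Of the 5 endothelial markers 3 were called lower at 24 h and at 72 h, and of 4 lymphocyte markers 1 passed the expression filter, which was called higher at 72 h. The part of these changes in the carrier levels was not tested beyond the comparison with cardiomyocyte markers given below.

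The carriers together made up a large and shrinking share of the transcriptome. Their summed FPKM was 1.29% to 1.32% of all FPKM in sham mice, 1.29% to 1.35% at 10 min and 1.35% to 1.37% at 1 h. It was 1.195% to 1.36% at 6 h, 0.845% to 1.12% at 24 h and 0.493% to 0.608% at 72 h. Every mouse of the 24 h and 72 h groups was below every sham mouse, and the 1 h mice were slightly above. Most of this sum was Slc25a4 alone, with 76.8% to 77.99% of the carrier FPKM in sham mice and 63.3% to 67.4% at 72 h. Without Slc25a4 the sum was still lower at 72 h, at 0.177% to 0.198% of all FPKM against 0.291% to 0.299% in sham mice.

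**Figure D1:**
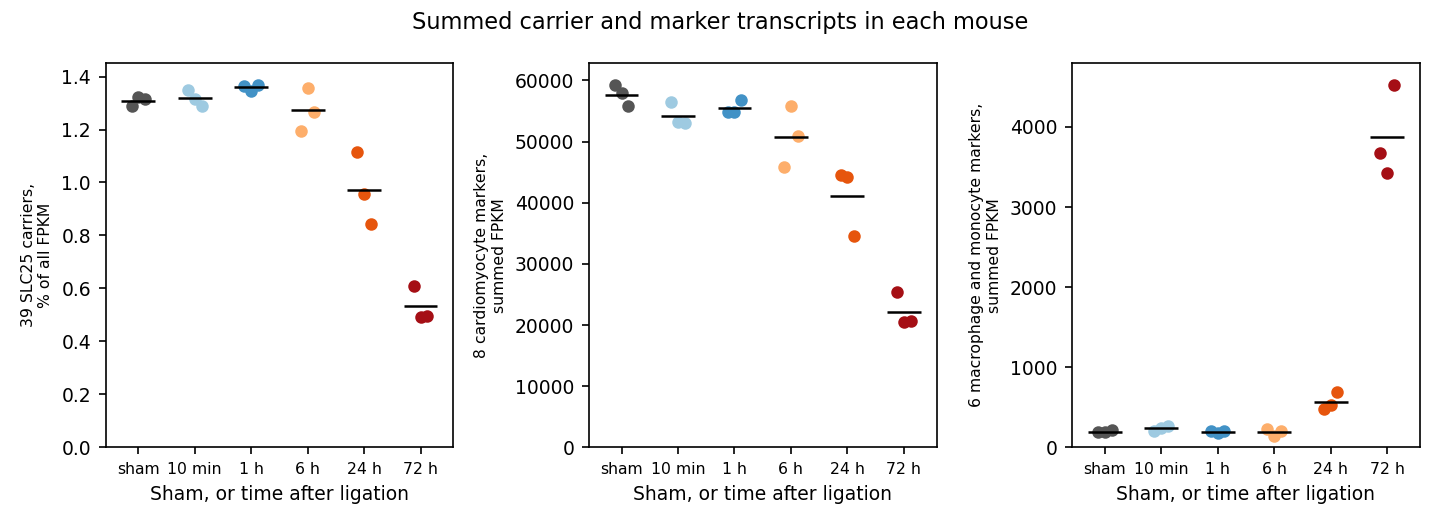
Left, summed FPKM of the 39 SLC25 carriers as a percent of all FPKM in each mouse (points, with the group mean as a line), in the middle the summed FPKM of 8 cardiomyocyte markers and on the right that of 6 macrophage and monocyte markers. The carrier share and the cardiomyocyte sum are lowest at 72 h, at 0.493% to 0.608% and 20429 to 25375 FPKM, while the macrophage sum is highest there, at 3424 to 4526 FPKM.

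With all mice included, single carriers were first called changed at 6 h. As deposited, more were called lower than higher at 6 h, 24 h and 72 h. At 72 h 33 of the 39 were called, where 53.1% of all genes were called higher and 24.2% lower. A carrier was called changed at a Benjamini-Hochberg adjusted p under 0.05 from limma on log2(FPKM + 1), with the adjustment over all genes tested. At 10 min and at 1 h limma called no carrier, and 5 carriers had p under 0.05 before adjustment at 10 min and 5 at 1 h. Of all genes, 0.248% were called higher and 0.0978% lower at 10 min, and 0.669% and 0.0526% at 1 h. At 6 h 1 carrier was called higher and 9 lower, beside 11.6% of all genes higher and 16.8% lower. At 24 h 5 were higher and 12 lower, beside 26.2% and 11.4% of all genes, and at 72 h 13 were higher and 20 lower, beside 53.1% and 24.2%. The median carrier was at a log2 fold change of -0.13, -0.08 and -0.16 at 6 h, 24 h and 72 h, where the median of all genes was at -0.08, 0.13 and 0.29.

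How the 72 h calls split depended on the scaling of the mice. Median-of-ratios scaling took the median of all genes at 72 h from 0.29 to 0.03 on the log2 scale and gave 7 carriers higher and 25 lower, beside 39.1% and 36% of all genes, and quantile normalization took it to -0.12 and gave 4 higher and 26 lower, beside 32.1% and 43.5%. At 24 h these scalings gave 4 higher and 18 lower, beside 18.5% and 18.2% of all genes, and 3 higher and 16 lower, beside 15.9% and 20.5%. At 6 h they gave 2 higher and 7 lower, beside 14.4% and 11.9%, and 2 higher and 9 lower, beside 12.4% and 16.1%. The median carrier lay below the median gene at 72 h in each of these fits, by 0.44 as deposited and by 0.50 and 0.42 on the log2 scale under these scalings. The counts at 6 h and 24 h also moved with the mice included. Without any 1 of the 3 sham mice, 3 carriers were called lower at 6 h and 1 at 24 h, and 1 or 2 were called higher at 24 h. The calls over all genes fell with them, from 2233 to between 852 and 1016 lower at 6 h, from 1516 to between 366 and 468 lower at 24 h and from 3496 to between 1262 and 1646 higher at 24 h. At 6 h, leaving out the third 6 h mouse gave 15 lower, where 2894 of all genes were lower, and leaving out the first gave 3 higher, where 1294 of all genes were higher and 1543 had been with all mice, while at 72 h no left-out mouse took the counts outside 11 to 12 higher and 17 to 20 lower.

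Of the 33 carriers called at 72 h, 10 had first been called at 6 h, 12 first at 24 h and 11 only at 72 h. The same split was not counted over all genes. A first call did not always last, since Slc25a10, Slc25a15, Slc25a23, Slc25a29 and Slc25a38 were not called at 24 h. Slc25a10 was called lower at 6 h and higher at 72 h. The 9 lower at 6 h included Slc25a10, Slc25a15, Slc25a23, Slc25a26, Slc25a29, Slc25a38, Slc25a42 and Slc25a47. The amino acid and cofactor carriers Slc25a29, Slc25a38, Slc25a15 and Slc25a42 were thus called lower before Slc25a4, whose 6 h mice overlapped the sham mice. This is an order of calls, and an order of the falls themselves was not tested. Slc25a15 was near sham again at 24 h (log2 change -0.08, limma adjusted p = 0.554).

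**Figure D2:**
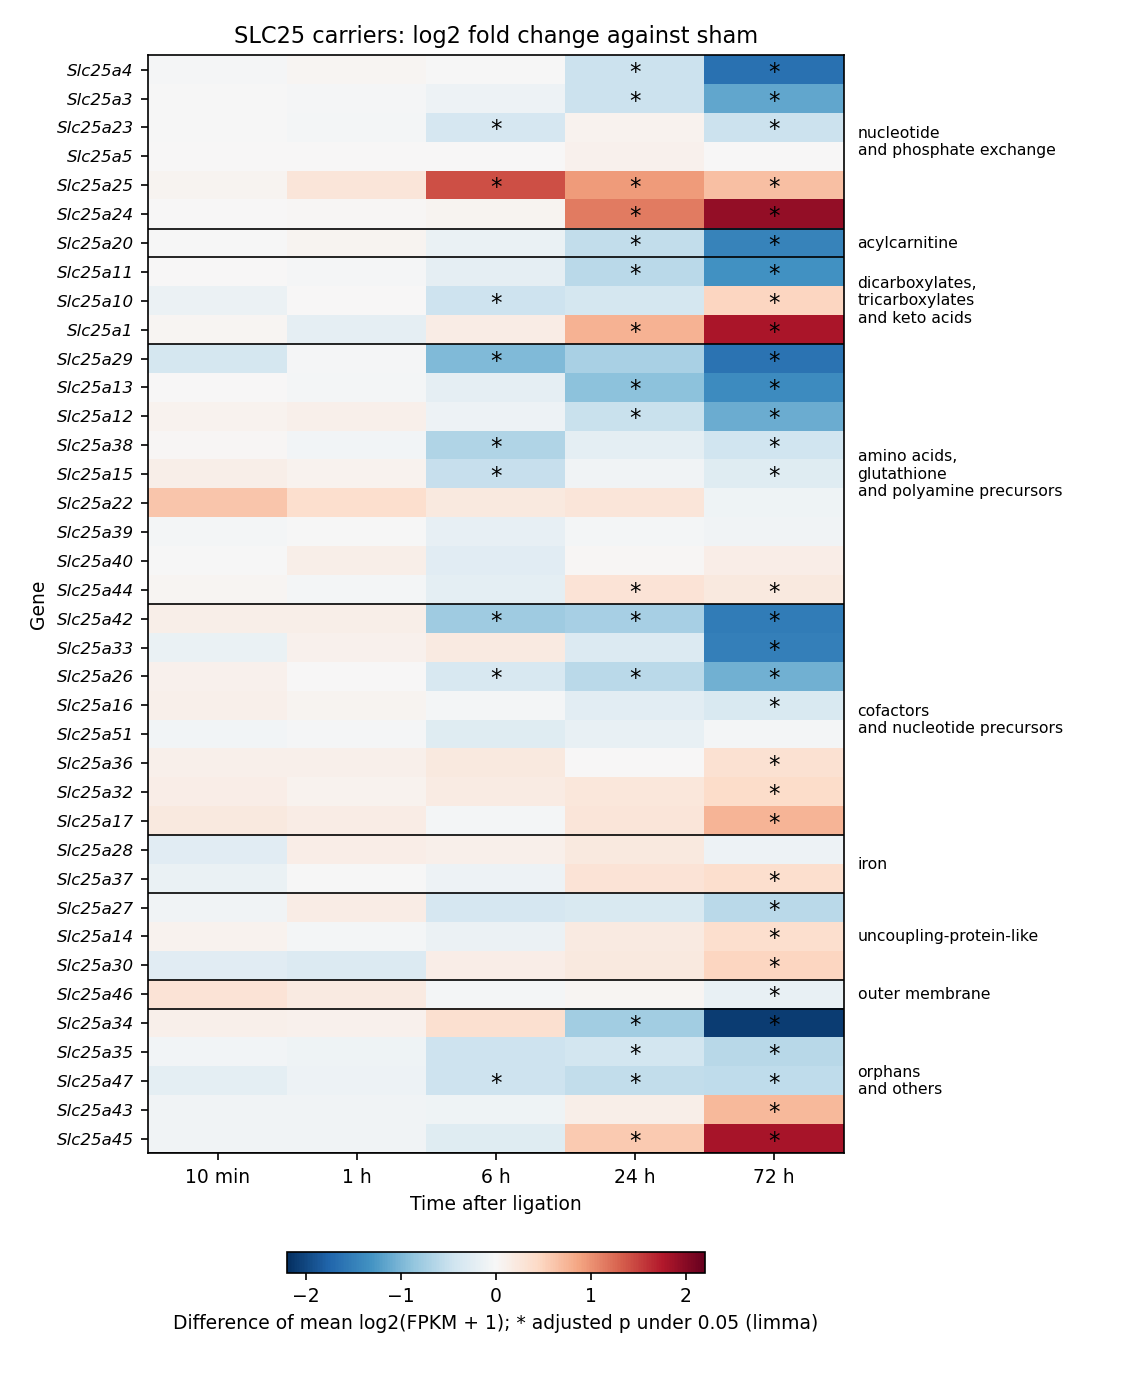
Log2 fold change of 38 of the 39 carriers against sham at 5 times after ligation (colour; difference of mean log2(FPKM + 1), n = 3 mice a group), grouped by what they carry and ordered within a group by the 72 h value. Stars mark an adjusted p under 0.05 (limma). No star stands at 10 min or 1 h, 9 stand at 6 h, 16 at 24 h and 32 at 72 h.

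Among carriers of nucleotides and phosphate, the pair that serves ATP synthase in muscle fell and the calcium-regulated carriers diverged. Slc25a4 was the 5th most abundant transcript of the table in sham mice, at 5798, 6050.1 and 5890.4 FPKM. It stood at 5494, 6525 and 5718 FPKM at 6 h, 5028, 4255 and 3669 FPKM at 24 h and 2295, 1715 and 1744 FPKM at 72 h. The 6 h mice overlapped the sham mice, and all mice at 24 h and 72 h were below them. At 72 h the mean was 67.6% below sham (log2 change -1.64 ± 0.14, SE, limma adjusted p = 8.37e-06). The 24 h fall of 26.99% was close to the threshold, with an adjusted p = 0.0435.

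The phosphate carrier Slc25a3 had 629, 577 and 592 FPKM in sham mice, 464, 469.6 and 368 FPKM at 24 h and 309, 238 and 273 FPKM at 72 h. Neither later group overlapped sham, and the 72 h mean was 54.4% below it (log2 change -1.14 ± 0.10, SE, limma adjusted p = 1.22e-05). Slc25a5, the ADP/ATP carrier of most other cells, was called at no time, with 94.8, 84.5 and 103 FPKM in sham mice and 94.1, 97.02 and 91.1 FPKM at 72 h. Its log2 fold change at 72 h was 0.01 ± 0.08 SE (adjusted p = 0.950), and under median-of-ratios scaling it was -0.31 with an adjusted p = 0.00577.

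Slc25a23, Slc25a24 and Slc25a25 are the ATP-Mg/phosphate carriers, which set the adenine nucleotide content of the matrix and are switched on by calcium. In sham hearts Slc25a23 was the most abundant of them, at 14.9, 15.2 and 13.8 FPKM, and it had 10.5, 11.7 and 11.4 FPKM at 6 h, 15.8, 18.3 and 12.9 FPKM at 24 h and 11.9, 9.33 and 9.94 FPKM at 72 h. It was called lower at 6 h (log2 change -0.36 ± 0.09, SE, limma adjusted p = 0.0213) and at 72 h (-0.47 ± 0.09, adjusted p = 0.00177), and at 24 h its mice overlapped the sham mice. The 6 h call was lost under median-of-ratios scaling (-0.28, adjusted p = 0.0583).

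Slc25a24 went the other way. Its 5.95, 6.24 and 5.62 FPKM in sham mice and 7.72, 4.997 and 6.34 FPKM at 6 h overlapped, and 10.6, 13.5 and 20.1 FPKM at 24 h and 22.5, 28.7 and 25.7 FPKM at 72 h did not. The rise was 2.48-fold at 24 h and 4.31-fold at 72 h (log2 change 1.93 ± 0.09, SE, limma adjusted p = 3.36e-07), the highest estimate of any carrier on the log2(FPKM + 1) scale, with those of Slc25a45 and Slc25a1 close to it. The 24 h mouse with the highest Slc25a24 also had the lowest cardiomyocyte sum and the highest macrophage sum of its group. Its neutrophil, endothelial, lymphocyte and erythroid sums were the highest as well, with neutrophil markers at 965 FPKM against 209 and 42.6 FPKM. Which cells the rise came from was not tested.

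Slc25a25 was the only carrier called higher at 6 h. It had 2.903, 3.79 and 5.14 FPKM in sham mice, 5.21, 4.76 and 4.67 FPKM at 1 h and 17.7, 9.54 and 10.1 FPKM at 6 h. All 6 h mice were above all sham mice, with the first of them well above the others. The mean was 3.15-fold that of sham (log2 change 1.42 ± 0.25, SE, limma adjusted p = 0.00796), and without any 1 of the 6 mice the log2 fold change lay between 1.15 and 1.58 and was called each time. It stood at 6.79, 8.79 and 9.44 FPKM at 24 h and 6.6004, 7.21 and 6.21 FPKM at 72 h, while still called above sham (log2 change 0.66 ± 0.15, SE, limma adjusted p = 0.00387). The first 6 h mouse also had the highest neutrophil sum of the 6 h group and the lowest cardiomyocyte sum. Its endothelial, macrophage and lymphocyte sums were the highest as well, and a link to Slc25a25 was not tested.

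**Figure D3:**
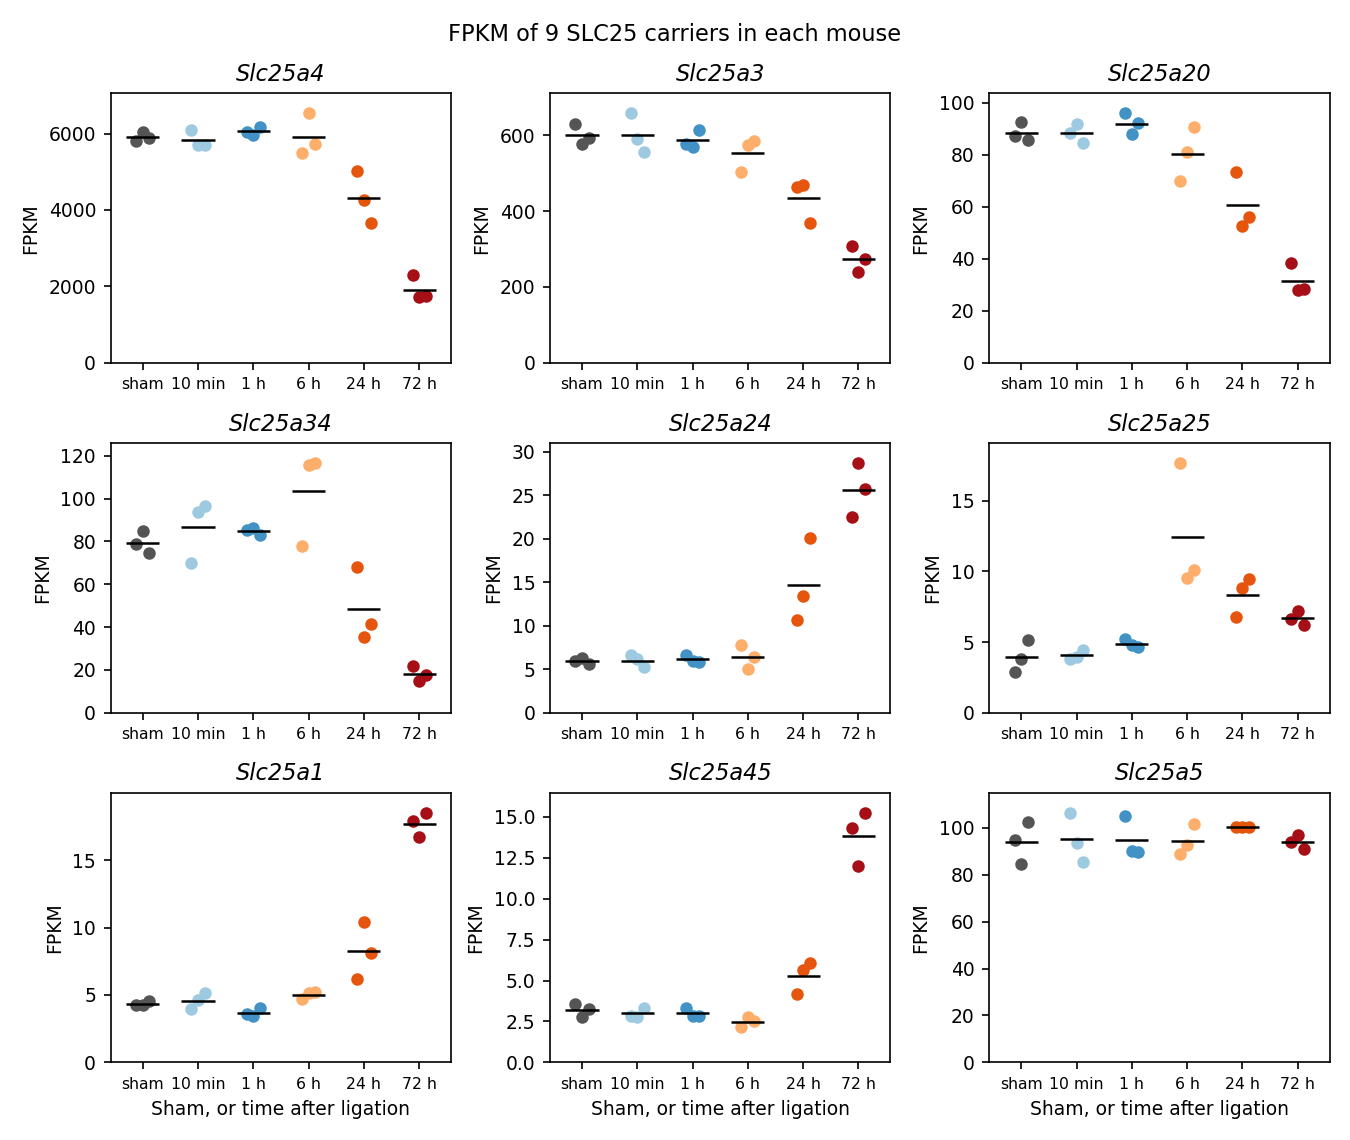
FPKM of 9 carriers in each of the 18 mice (points, with the group mean as a line), each panel with its own axis from 0. Slc25a4, Slc25a3, Slc25a20 and Slc25a34 are lowest at 72 h, Slc25a24, Slc25a1 and Slc25a45 highest at 72 h, Slc25a25 highest at 6 h, and Slc25a5 stays between 84.5 and 106 FPKM.

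The bases before a RefSeq start of 4 of these genes are shown. Slc25a25 was the early rise, and Slc25a24 and Slc25a34 had the highest and the lowest 72 h estimates on the log2(FPKM + 1) scale. Slc25a36 shares a motif with Slc25a25. Of the 39 carriers, 30 had RefSeq start sites in the sequence table used, with 38 windows of 250 bases before a start (GRCm38.p6). The cAMP response element TGACGTCA, bound by CREB-type factors, stood in 2 of the 38 windows, 1 of Slc25a25 and 1 of Slc25a36, and in 1.55% of all 32851 windows. In capitals below, it begins 150 bases before the start used by 1 of the 3 Slc25a25 windows and 161 bases before that of Slc25a36. This Slc25a25 window precedes an internal start and lies inside the gene model (chr2:32414487-32451445). The window before the start of that model (chr2:32451471-32451720) has no match. Bases that GENCODE places in an exon of the gene were left off the Slc25a36 window. All are written 5′ to 3′ on the strand of the gene, at chr2:32424067-32424316 (minus strand, Slc25a25), chr9:97111158-97111291 (minus strand, Slc25a36), chr3:109122899-109123148 (plus strand, Slc25a24) and chr4:141623835-141624084 (minus strand, Slc25a34).
Slc25a25: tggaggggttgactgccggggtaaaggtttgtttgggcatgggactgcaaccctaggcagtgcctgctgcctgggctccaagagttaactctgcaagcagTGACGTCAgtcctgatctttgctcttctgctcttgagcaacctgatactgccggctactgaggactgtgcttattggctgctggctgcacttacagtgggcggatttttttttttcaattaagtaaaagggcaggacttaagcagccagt
Slc25a36: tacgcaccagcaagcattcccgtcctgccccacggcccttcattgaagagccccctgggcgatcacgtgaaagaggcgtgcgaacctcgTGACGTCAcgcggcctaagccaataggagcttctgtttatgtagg
Slc25a24: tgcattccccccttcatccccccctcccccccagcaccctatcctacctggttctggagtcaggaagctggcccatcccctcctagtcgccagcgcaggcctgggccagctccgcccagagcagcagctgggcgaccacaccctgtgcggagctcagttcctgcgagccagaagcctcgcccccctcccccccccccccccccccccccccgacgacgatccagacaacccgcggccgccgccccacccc
Slc25a34: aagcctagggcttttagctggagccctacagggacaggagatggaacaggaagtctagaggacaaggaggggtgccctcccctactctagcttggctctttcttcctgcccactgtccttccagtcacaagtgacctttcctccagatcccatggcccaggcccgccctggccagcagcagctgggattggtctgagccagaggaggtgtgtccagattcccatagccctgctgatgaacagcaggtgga

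The E-box CACGTG was in 7 of the 38 carrier windows, or 18.4%, and in 6.02% of all windows. The carriers with it were Slc25a1, Slc25a13, Slc25a14, Slc25a15, Slc25a33 and Slc25a36. Of these, 3 were higher and 3 lower at 72 h, beside 53.1% and 24.2% of all genes. The extended half-site TNAAGGTCA of estrogen-related receptors stood in none of the 38 windows and in 1.14% of all, and the palindromic nuclear respiratory factor motif in none and in 0.782%. Both strands were searched, and none of the 4 motifs holds another. A match describes the letters only, and binding was not measured.

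Slc25a20, the carnitine-acylcarnitine carrier through which long-chain fatty acids enter the matrix, fell at 24 h and 72 h. It had 87.2, 92.4 and 85.6 FPKM in sham mice, 69.98, 80.9 and 90.5 FPKM at 6 h, 73.4, 52.5 and 56.1 FPKM at 24 h and 38.5, 28.02 and 28.4 FPKM at 72 h. The 6 h values overlapped those of sham mice and the later ones did not. The fall was 31.4% at 24 h and 64.2% at 72 h (log2 change -1.47 ± 0.12, SE, limma adjusted p = 5.72e-06).

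The carriers of dicarboxylates and tricarboxylates moved apart. Slc25a11, the oxoglutarate carrier of the malate-aspartate shuttle, had 209.5, 212 and 213 FPKM in sham mice, 165, 137 and 119 FPKM at 24 h and 99.6, 74.03 and 77.9 FPKM at 72 h, a fall of 60.3% (log2 change -1.34 ± 0.11, SE, limma adjusted p = 6.07e-06). Slc25a1, which exports citrate for fatty acid and sterol synthesis, had 4.29, 4.24 and 4.55 FPKM in sham mice, 6.16, 10.4 and 8.15 FPKM at 24 h and 17.9, 16.7 and 18.5 FPKM at 72 h. Neither later group overlapped the sham mice, and the 72 h mean was 4.06-fold higher (log2 change 1.80 ± 0.07, SE, limma adjusted p = 1.13e-07).

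Slc25a10, the dicarboxylate carrier that exchanges malate or succinate for phosphate, fell and then rose. It had 9.08, 9.31 and 9.81 FPKM in sham mice, 5.79, 7.23 and 6.67 FPKM at 6 h, 6.96, 8.43 and 5.66 FPKM at 24 h and 14.7, 12.7 and 13.01 FPKM at 72 h. All 6 h and 24 h mice were below the sham mice and all 72 h mice above them. The log2 fold change was -0.46 ± 0.10 SE at 6 h (adjusted p = 0.0161) and 0.48 ± 0.08 SE at 72 h (adjusted p = 0.000471). The 72 h rise was not called under median-of-ratios scaling, where it was 0.18 with an adjusted p = 0.0723, and an antisense transcript covers 6.60% of its exon bases.

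Of the 9 carriers of amino acids, glutathione and polyamine precursors, 5 were lower and 1 higher at 72 h, beside 24.2% and 53.1% of all genes. The aspartate/glutamate carriers of the shuttle, Slc25a12 (aralar) and Slc25a13 (citrin), both fell. Slc25a12 had 146, 146 and 146 FPKM in sham mice, 120.4, 103 and 90.4 FPKM at 24 h and 79.6, 62.6 and 63.4 FPKM at 72 h. Slc25a13 had 49.5, 50.03 and 50.5 FPKM in sham mice, 33.8, 28.9 and 18.6 FPKM at 24 h and 22.9, 17.7 and 16.01 FPKM at 72 h. Neither overlapped sham from 24 h on, and the 72 h log2 fold changes were -1.09 ± 0.10 SE and -1.38 ± 0.12 SE (adjusted p = 1.03e-05 and 8.04e-06).

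Slc25a29, which carries arginine and lysine, was called lower at 6 h and at 72 h. It had 11.7, 12.1 and 11.3 FPKM in sham mice, 3.62, 6.797 and 6.42 FPKM at 6 h, 8.18, 8.899 and 4.02 FPKM at 24 h and 3.89, 2.68 and 2.88 FPKM at 72 h. Every mouse at these times was below the sham mice, with 24 h mice widely spread. The log2 fold change was -0.98 ± 0.20 SE at 6 h (adjusted p = 0.0118), -0.72 ± 0.25 at 24 h, which missed the threshold (adjusted p = 0.0568), and -1.62 ± 0.11 at 72 h (adjusted p = 2.42e-06).

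The glycine carrier Slc25a38 and the ornithine carrier Slc25a15 also fell by 6 h, to 14.7 ± 1.99 and 7.51 ± 1.42 FPKM (mean ± SD, n = 3) from 23.7 ± 0.179 and 11.1 ± 1.001 FPKM in sham mice, and had 17.2 ± 0.806 and 8.95 ± 0.363 FPKM at 72 h. The 6 h and 72 h mice were not tested against each other, and which was lower turned with the scaling, since the log2 fold changes against sham under median-of-ratios scaling were -0.57 at 6 h and -0.74 at 72 h for Slc25a38 and -0.43 and -0.56 for Slc25a15. Slc25a44, which imports branched-chain amino acids, rose slightly, with a log2 fold change of 0.30 ± 0.10 SE at 24 h and 0.22 ± 0.09 at 72 h (adjusted p = 0.0442 and 0.0444), and was at -0.06 under median-of-ratios scaling at 72 h. Its 24 h rise was not called under that scaling either (0.16, adjusted p = 0.221). The glutathione carriers Slc25a39 and Slc25a40 were called at no time, with 72 h log2 fold changes of -0.08 ± 0.08 and 0.14 ± 0.10 SE, but Slc25a39 was called lower there under median-of-ratios scaling (-0.39, adjusted p = 0.00417).

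The glutamate carrier Slc25a22 had the largest unadjusted early difference of any carrier. It had 9.09, 7.12 and 7.89 FPKM in sham mice and 8.84, 13.8 and 16.6 FPKM at 10 min, where 1 of the 3 mice lay within the sham range (log2 change 0.61 ± 0.20, SE, limma adjusted p = 0.242). It was not called against sham at any time, and at 72 h it was lower than at 24 h (-0.36 ± 0.11, adjusted p = 0.0317). Under median-of-ratios scaling it was called lower than sham at 72 h (-0.37, adjusted p = 0.0128).

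Carriers of cofactors and nucleotide precursors held the early and the late falls side by side. Of the 9, 3 were called lower at 6 h and at 24 h, beside 16.8% and 11.4% of all genes. At 72 h 3 were called higher and 5 lower, beside 53.1% and 24.2%.

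Slc25a42, the coenzyme A carrier, fell at 6 h, 24 h and 72 h. It had 25.02, 23.9 and 22.8 FPKM in sham mice, 10.1, 13.2 and 18.6 FPKM at 6 h, 17.3, 12.99 and 12.02 FPKM at 24 h and 8.86, 6.496 and 7.58 FPKM at 72 h. No group from 6 h on overlapped sham, and the 72 h fall was 68.04% (log2 change -1.54 ± 0.10, SE, limma adjusted p = 2.04e-06). Slc25a26, which imports the methyl donor S-adenosylmethionine, fell at each of these times as well, by 22.2%, 34.6% and 53.7%.

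Slc25a33, a carrier of pyrimidine nucleotides used in mitochondrial DNA and RNA synthesis, was called lower only at 72 h. It had 15.6, 19.4 and 15.3 FPKM in sham mice, 15.8, 14.7 and 10.2 FPKM at 24 h, where 1 mouse lay within the sham range, and 5.47, 5.49 and 4.86 FPKM at 72 h, a fall of 68.6% (log2 change -1.496 ± 0.10, SE, limma adjusted p = 2.11e-06). Its relative Slc25a36 had 14.9, 14.7 and 15.5 FPKM in sham mice and 17.4, 19.6 and 20.7 FPKM at 72 h, a slight rise (log2 change 0.33 ± 0.08, SE, limma adjusted p = 0.00405) that turned to -0.01 under quantile normalization and was not called under median-of-ratios scaling (0.03, adjusted p = 0.716). An antisense transcript covers 14.9% of the exon bases of Slc25a33, and the library kit as described does not mark the strand, so its reads cannot be told from those of the carrier.

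Slc25a17, which works in peroxisomes and not in mitochondria, rose 1.79-fold at 72 h (log2 change 0.75 ± 0.10, SE, limma adjusted p = 0.000122), and the folate and FAD carrier Slc25a32 rose 1.41-fold, a call lost under median-of-ratios scaling (log2 fold change 0.14, adjusted p = 0.205, against 0.40 as deposited). Slc25a16 fell by 21.7%. Slc25a51, the NAD+ carrier, was called at no time and had 59.5, 64.2 and 64.1 FPKM in sham mice and 60.8, 59.97 and 61.8 FPKM at 72 h. Under median-of-ratios scaling it was called lower at 24 h (-0.33, adjusted p = 0.0414) and at 72 h (-0.35, adjusted p = 0.000837).

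The iron importers, known as mitoferrins, were read as a pair. Slc25a28 (mitoferrin-2), the form of most tissues, had 24.3, 32.2 and 27.4 FPKM in sham mice and 25.4, 24.3 and 27.3 FPKM at 72 h and was not called against sham, though lower at 72 h under median-of-ratios scaling (-0.42, adjusted p = 0.00610). Slc25a37 (mitoferrin-1), the form of red cell precursors, had 14.998, 11.1 and 12.5 FPKM in sham mice and 17.2, 15.8 and 17.5 FPKM at 72 h (log2 change 0.37 ± 0.10, SE, limma adjusted p = 0.0105). All 72 h mice were above the sham mice, though not called so under median-of-ratios scaling (0.07, adjusted p = 0.567). Of the 5 erythroid markers 2 were called lower and none higher at 72 h. Their summed level was 2234 to 4133 FPKM in sham mice and 1483 to 2199 FPKM at 72 h. The part of red cells in the level of Slc25a37 was not tested.

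Of the carriers related to uncoupling proteins, all at low levels, Slc25a14 and Slc25a30 rose and Slc25a27 fell at 72 h, and Slc25a14 reached 1 FPKM in only 5 mice. The rise of Slc25a14 was 0.36 on the log2 scale as deposited and 0.21 under median-of-ratios scaling, where it was not called (adjusted p = 0.156). Slc25a30 had 2.19, 2.53 and 2.32 FPKM in sham mice and 3.58, 3.81 and 3.58 FPKM at 72 h (log2 change 0.48 ± 0.08, SE, limma adjusted p = 0.000566), which turned to -0.04 under quantile normalization. Slc25a46, which sits in the outer membrane and takes part in mitochondrial fusion and division, was near level, with 52.6, 51.9 and 56.04 FPKM in sham mice and 48.8, 48.3 and 46.7 FPKM at 72 h. Its slight fall was just past the threshold (log2 change -0.16 ± 0.06, SE, limma adjusted p = 0.0433), which it missed without any 1 sham mouse and without the second or the third 72 h mouse. At 10 min all 3 mice were above the sham mice, at 64.8, 64.1 and 69.3 FPKM, with an adjusted p = 0.0820.

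Among the carriers with no settled substrate was the deepest fall of the family. Slc25a34 had 78.8, 84.8 and 74.7 FPKM in sham mice, 77.7, 116 and 117 FPKM at 6 h, 68.02, 35.3 and 41.4 FPKM at 24 h and 21.98, 14.7 and 17.4 FPKM at 72 h. At 6 h 2 of the 3 mice were above every sham mouse, and from 24 h on all were below. The 72 h fall was 77.3% (log2 change -2.10 ± 0.13, SE, limma adjusted p = 1.28e-06).

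Slc25a45 had 3.59, 2.75 and 3.28 FPKM in sham mice, 2.16, 2.79 and 2.51 FPKM at 6 h, 4.18, 5.63 and 6.08 FPKM at 24 h and 14.3, 11.99 and 15.2 FPKM at 72 h. It was 4.32-fold higher at 72 h (log2 change 1.82 ± 0.11, SE, limma adjusted p = 1.23e-06). On the log2(FPKM + 1) scale it stood apart, with Slc25a24 and Slc25a1, from the other carriers that rose, whose changes were at most 0.75. That scale understates the changes of low carriers, among them Slc25a43. Slc25a35 and Slc25a47 fell, by 51.8% and 40.2% at 72 h. Slc25a43 was at 0.134, 0.175 and 0.161 FPKM in sham mice and 0.792, 0.813 and 1.07 FPKM at 72 h, so that it met the rule through 1 mouse at 72 h only and its rise there was partly built in. The exons of Slc25a35 overlap those of Rangrf on the other strand over 31.3% of their bases, which leaves its level uncertain.

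The later times were also compared with each other. From 6 h to 24 h 2 carriers were called higher, Slc25a24 and Slc25a45, and 1 lower, Slc25a34, beside 12.5% of all genes higher and 1.94% lower. None of these 3 calls held without any 1 of the 6 h mice or without the second 24 h mouse, which left few calls among all genes as well. Those went from 1664 higher and 258 lower to 191 and 37 when the first 6 h mouse was omitted, to 1 and 1 for the second or the third, and to 27 and 5 for the second 24 h mouse. Without the first 24 h mouse 3 carriers were called higher and 3 lower, and 1745 and 354 of all genes. From 24 h to 72 h 6 were higher and 12 lower, beside 29.7% and 13.5% of all genes. The 6 were Slc25a1, Slc25a10, Slc25a17, Slc25a24, Slc25a43 and Slc25a45, and the 12 included Slc25a34 (-1.33 ± 0.25), Slc25a33 (-1.19 ± 0.16), Slc25a4 (-1.17 ± 0.18) and Slc25a20 (-0.92 ± 0.17, log2 fold change ± SE). Without the second or the third 72 h mouse 7 carriers were called lower in this step, where the calls over all genes fell from 1799 to 1185 and 1037 lower. The step from 6 h to 24 h had 1 higher and 1 lower under median-of-ratios scaling, Slc25a24 no longer being called (0.84, adjusted p = 0.0675), beside 3.02% and 2.76% of all genes, none under quantile normalization (limma, 13 with p under 0.05 before adjustment), beside 2.78% and 2.08%, and 14 higher and none lower when centred on cardiomyocyte markers, beside 44.2% and 0.36%. For the step from 24 h to 72 h the counts were 6 and 17 (23.7% and 20.2% of all genes), 4 and 18 (20.8% and 25.7%), and 23 and 0 (74.7% and 0.503%).

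The proportions of 7 pairs of related carriers were compared in each mouse, and such shares do not depend on a common scaling factor. Slc25a23 made up 70.9% to 71.5% of the summed FPKM of Slc25a23 and Slc25a24 in sham mice, 57.6% to 70.03% at 6 h, 39.1% to 59.9% at 24 h and 24.6% to 34.6% at 72 h. Slc25a36 made up 43.2% to 50.3% of the Slc25a36 and Slc25a33 pair in sham mice and 76.1% to 80.98% at 72 h. By 72 h Slc25a24 had become the larger of the first pair, and Slc25a36, about level with Slc25a33 in sham mice, the larger of the other.

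In the ADP/ATP carriers Slc25a4 kept the lead, with 98.3% to 98.6% of the Slc25a4 and Slc25a5 pair in sham mice and 94.6% to 96.1% at 72 h. Quantile normalization, which does not scale all genes of a mouse alike, cut this shift of the mean share from -3.19 to -1.10 percentage points. Slc25a12 held 74.3% to 74.8% of its pair with Slc25a13 in sham mice, 78.1% to 82.95% at 24 h and 77.7% to 79.8% at 72 h. Slc25a28 was at 61.9% to 74.3% of the mitoferrins in sham mice and 59.7% to 60.9% at 72 h. Of the glutathione carriers, Slc25a39 had 93.97% to 95.03% of its pair in sham mice and 92.1% to 94.4% at 72 h, and of the glutamate carriers Slc25a22 held 98.1% to 100% in sham mice and 96.6% to 99.8% at 72 h, Slc25a18 lying below the rule. With quantile normalization the mean 72 h share of Slc25a12 was 6.15 points above sham in place of 4.001, that of Slc25a39 0.849 points above in place of -1.08, and the share of Slc25a28 overlapped sham (exact permutation p = 0.2, two-sided).

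In an exact permutation test of 3 mice against 3, two-sided, the smallest p possible is 0.1. It was reached by 11 of the 35 shares compared (7 pairs at 5 times), among them every 72 h share just given other than those of Slc25a39 and Slc25a22, and no share can pass 0.05 in this design (smallest adjusted p 0.318).

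**Figure D4:**
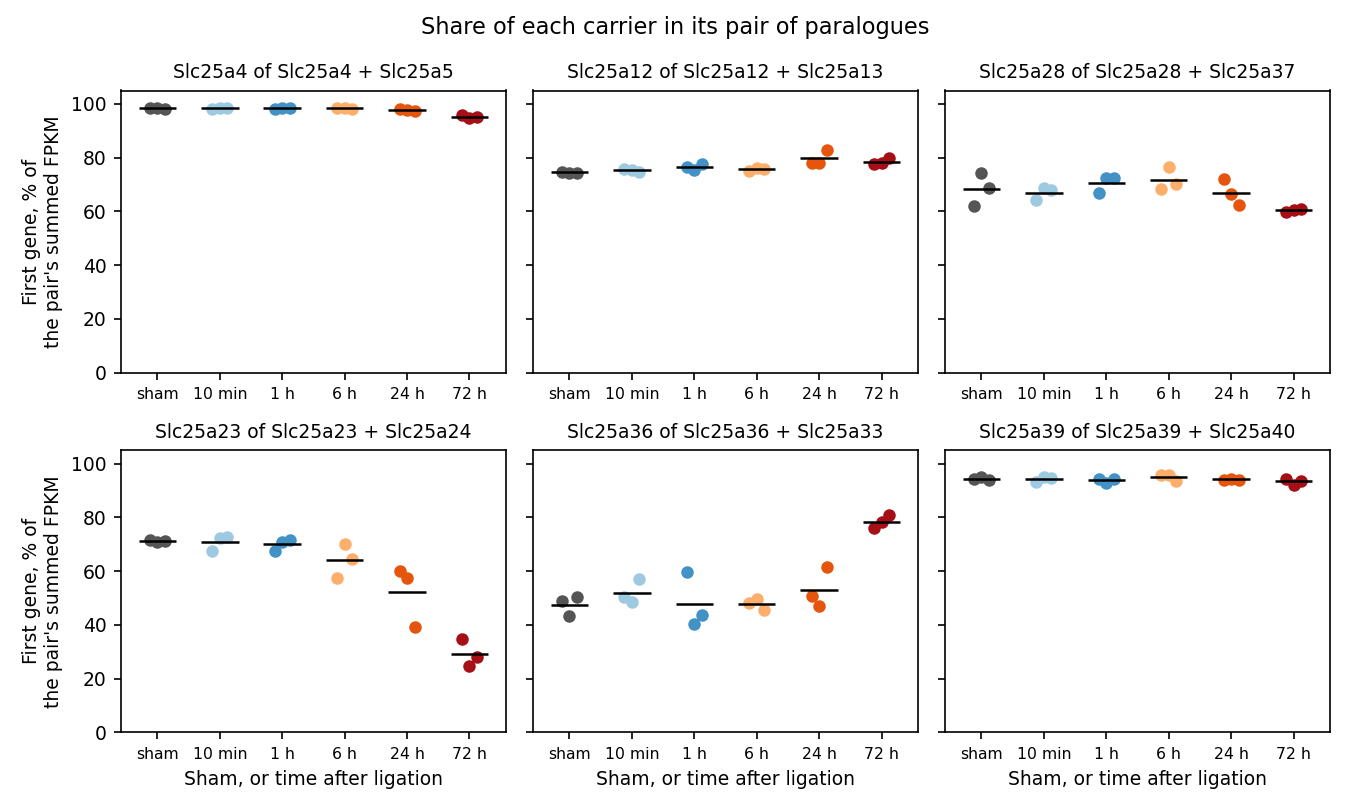
Share of the first-named carrier in the summed FPKM of its pair, in percent, in each mouse (points, with the group mean as a line). Slc25a23 goes from 70.9% to 71.5% in sham mice to 24.6% to 34.6% at 72 h and Slc25a36 from 43.2% to 50.3% to 76.1% to 80.98%, while Slc25a39 is at 92.1% to 94.4% of its pair at 72 h.

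At 72 h the falls of the carriers were set beside that of heart muscle transcripts. The 8 cardiomyocyte markers were all called lower, at a mean log2 fold change of -1.497. Slc25a34, Slc25a4, Slc25a29 and Slc25a42 were further down than this mean, and the other 16 carriers called lower were at or above it. When every mouse was centred on the mean of these markers, 31 carriers were higher than sham at 72 h and 1 lower, where 95.9% of all genes were higher and 0.668% lower. The carrier still lower was Slc25a34, at -0.60 ± 0.14 SE (adjusted p = 0.000181).

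Relative to these markers Slc25a4, Slc25a29 and Slc25a42 stood at -0.14, -0.12 and -0.04, and Slc25a33, Slc25a20, Slc25a13 and Slc25a11 at 0.00067, 0.03, 0.12 and 0.16, none of them called. Slc25a3 and Slc25a12 were called higher than sham after this centring, at 0.36 and 0.41, having fallen less than the mean of the markers. At 6 h, 4 carriers were lower than sham also by this measure, among them Slc25a29 at -0.74, Slc25a42 at -0.54 and Slc25a38 at -0.42, and 5 were higher, where 5.02% of all genes were lower and 21.4% higher. At 24 h no carrier was lower and 21 were higher, beside 0.645% and 74.9% of all genes, and in a list of 8 markers the reference itself has an error that this count does not hold.

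**Figure D5:**
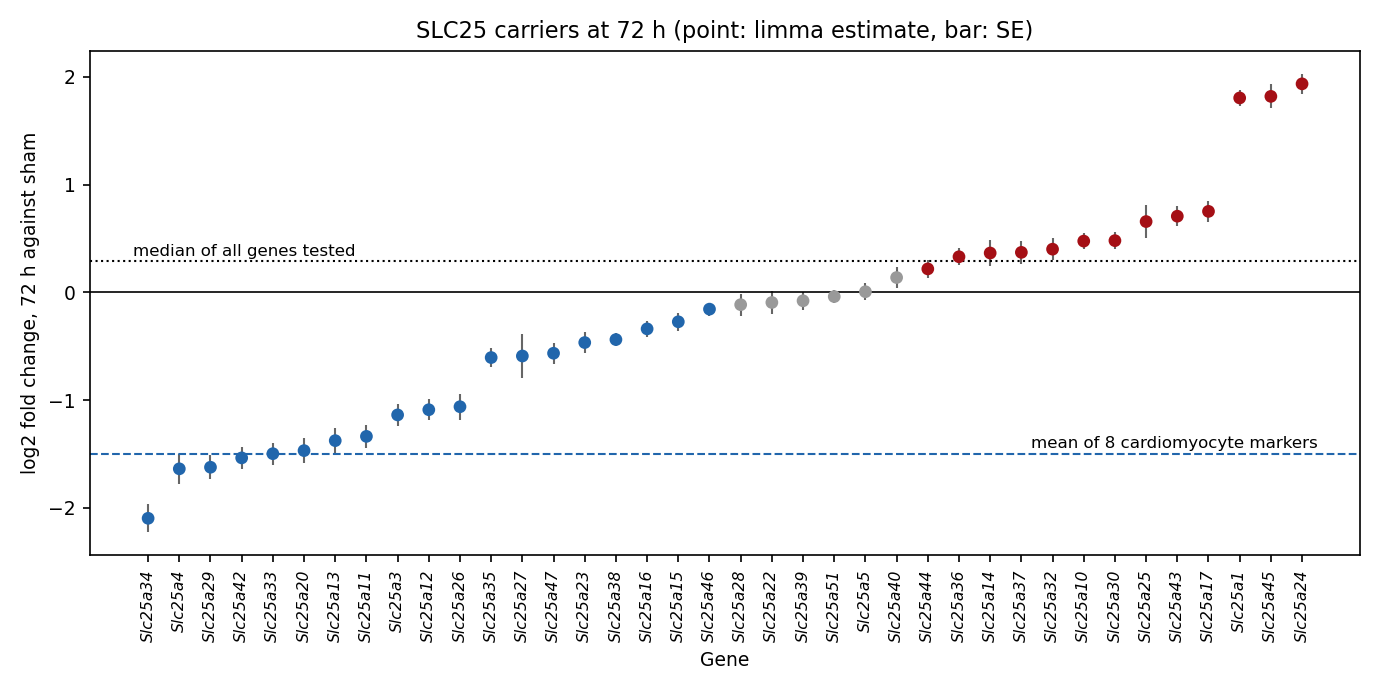
Log2 fold change of 38 of the 39 carriers at 72 h against sham (points, limma estimate; bars, SE; red, called higher; blue, called lower; grey, not called), ordered by value, with the median of all genes tested (dotted, 0.29) and the mean of 8 cardiomyocyte markers (dashed, -1.497). Slc25a34 lies furthest below the dashed line, and Slc25a1, Slc25a45 and Slc25a24 stand apart at the top.

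The 72 h calls were also counted by abundance in sham hearts. The 4 carriers at 100 FPKM or more in sham mice, Slc25a4, Slc25a3, Slc25a11 and Slc25a12, were all lower at 72 h, beside 60.2% of all genes tested at that level. Of the 19 between 10 and 100 FPKM 13 were lower, 2 higher and 4 not called, beside 34.1% of all genes lower and 43.1% higher. Of the 16 under 10 FPKM 3 were lower, 11 higher and 2 not called, beside 14.3% and 62.1%. The gradient was thus one of all genes as well, and it was not tested whether that of the carriers was steeper. Part of it is built in, since genes low in sham mice could pass the filter through a later group, as Slc25a43 did. The sham mice also set both the level classes and the baseline of the fold changes.

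Relatives and partners of the family were read for comparison, from lists chosen for their function or, for complex I, by symbol. Of the uncoupling proteins, Ucp2, known from immune cells, rose to 29.03, 24.7 and 28.3 FPKM at 6 h and 61.6, 51.7 and 67.8 FPKM at 72 h from 8.99, 10.5 and 10.1 FPKM in sham mice (log2 fold changes 1.38 and 2.49, adjusted p = 0.000392 and 1.52e-07). Ucp3, the muscle form, had 21.5, 22.3 and 21.3 FPKM in sham mice, 53.7, 110.04 and 119 FPKM at 6 h and 12.9, 9.45 and 9.58 FPKM at 72 h. It was far above sham at 6 h, like Slc25a25, and below it at 72 h (log2 fold changes 1.99 and -0.98, adjusted p = 0.00333 and 5.06e-05), and Ucp1 did not pass the expression filter. Mtch1 and Mtch2, carrier relatives of the outer membrane, were at 0.72 and -0.55 at 72 h (adjusted p = 2.81e-05 and 4.05e-05).

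Of 10 other routes across the mitochondrial membranes, 6 were lower and 4 higher at 72 h. Over all genes 24.2% were lower and 53.1% higher at 72 h, to be read beside each list of this paragraph. The pyruvate carrier subunits Mpc1 and Mpc2 fell by 1.33 and 1.27 on the log2 scale and the outer membrane channels Vdac1, Vdac2 and Vdac3 by 1.09, 0.46 and 0.68, while the sideroflexins Sfxn1, Sfxn2, Sfxn3 and Sfxn5 rose and Sfxn4 fell. Of 14 import machinery genes, which bring carrier proteins into the membrane, 2 were higher and 7 lower at 72 h, with a median of -0.18. Of 37 genes with the symbols of nuclear complex I subunits 36 were lower at 72 h, with a median of -1.29, and Ndufa4l2 was higher. These 37 were taken by symbol alone, which does not show that each, Ndufa4l2 among them, is a subunit of the complex.

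The 8 symbols below the rule were Slc25a2, Slc25a18, Slc25a21, Slc25a31, Slc25a41, Slc25a48, Slc25a53 and Slc25a54. Slc25a31, the testis form of the ADP/ATP carrier, was highest of them, at up to 0.410 FPKM, and Slc25a54 was listed at 0 in all 18 mice. In GENCODE M21 (GRCm38) all 39 carriers were placed, each as a protein-coding gene. Slc25a29 and Slc25a47 lie head to head on chromosome 12 with 162 bases between their gene models, and both were lower at 6 h and at 72 h, the 6 h call of Slc25a47 being lost under median-of-ratios scaling (-0.40, adjusted p = 0.0527). Slc25a43 and Slc25a5 are neighbours on chromosome X, 18448 bases apart.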

How the data were processed

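PolyA RNA from the hearts of 18 mice was sequenced from libraries of a kit that, as described, does not mark the strand. The authors trimmed reads with cutadapt 1.18, aligned them to mm10 with HISAT2 2.1.0 and deposited FPKM per gene from StringTie 1.3.4d. Cufflinks and Cuffdiff are also named in the submitters' processing notes, and the annotation is not given in the sources used here. FPKM hold no read counts, so depth is known only relative to another mouse and no count test was run.

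Genes with at least 1 FPKM in at least 1 mouse were kept, and log2(FPKM + 1) was fitted with limma 3.58.1 (R 4.3.3, variance trend, two-sided) on the 6 mice of each comparison, and p-values were adjusted by Benjamini-Hochberg across every gene in the fit. Fold changes on this scale understate those of low genes. Ratios and percentages are of mean FPKM. Shares of paralogues were compared with exact permutation tests over all splits of the mice (Python 3.11.15, numpy 2.4.6). The alternatives were another pseudocount (0.1), another filter or none, no variance trend, median-of-ratios scaling, quantile normalization, centring on cardiomyocyte markers, 1 fit for all mice, a replicate block, and leaving out each mouse. The code was tested on simulated data. Genes were named as the highest carrier of each role group in sham mice, the 3 largest called rises and falls of each comparison without overlap, and both genes of each pair; other carriers are named to account for every member and were chosen after their values were seen. Counts and sums cover all 39 carriers, of which 1 is not reported here by name. The members and lists were chosen with earlier results of these data known. Upstream sequences came from RefSeq (GRCm38.p6), and gene positions and exon overlaps from GENCODE M21.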

Additional observations from a re-analysis of the deposited data

Results flagged for a closer look

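In 4 carriers the effect against sham had opposite signs at consecutive times, and limma's direct comparison of these times was called. In each of them the effect at the earlier of these times was itself not called. Only the steps from 6 h to 24 h and from 24 h to 72 h were searched. How many of all genes met the same rule was not counted, so whether the carriers differ from other genes in this was not tested. Slc25a10 was at a log2 fold change of -0.39 at 24 h (limma adjusted p = 0.0614) and called higher at 72 h, and the log2 difference of 72 h from 24 h was 0.865. Slc25a23 was at 0.08 at 24 h (adjusted p = 0.662), with mice that overlapped sham, and called lower at 72 h, with a difference of -0.542, and its 24 h value was -0.07 under median-of-ratios scaling, so that the opposite signs were not kept. Slc25a34 was at 0.35 at 6 h (adjusted p = 0.130), with mice that overlapped sham, and called lower at 24 h, with a difference of -1.12. Slc25a45 was at -0.27 at 6 h (adjusted p = 0.126), again overlapping sham, and called higher at 24 h, with a difference of 0.844. The differences from 6 h to 24 h were not called without any 1 of the 6 h mice.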

How the results depend on the processing

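Another pseudocount, another filter on mean FPKM and no variance trend moved no count of called carriers by over 1.5 times. Centred on cardiomyocyte markers, 5 carriers were higher and 4 lower at 6 h, beside 21.4% and 5.02% of all genes. At 24 h the counts were 21 and 0, beside 74.9% and 0.645%, and at 72 h 31 and 1, beside 95.9% and 0.668%. For 24 h against 6 h they were 14 and 0 (44.2% and 0.36%), and for 72 h against 24 h 23 and 0 (74.7% and 0.503%). This centring shifts every gene of a mouse by the same amount on the log2 scale. A fall that turned positive was thus only a smaller one than the mean fall of the markers. Under this centring the log2 fold change turned positive for Slc25a11 (0.077 at 24 h, 0.16 at 72 h, 0.084 for 72 h against 24 h), Slc25a12 (0.19, 0.41 and 0.22), Slc25a20 (0.13 at 24 h, 0.029 at 72 h), Slc25a4 (0.21 at 24 h), and at 72 h for Slc25a13 (0.12), Slc25a23 (1.03), Slc25a33 (0.00067) and Slc25a46 (1.34), and for 72 h against 24 h in Slc25a22 (0.47), Slc25a23 (0.28), Slc25a28 (0.49) and Slc25a42 (0.023). Median-of-ratios scaling gave 2 carriers higher at 6 h, 7 higher at 72 h and 1 higher for 24 h against 6 h. Beside them 14.4%, 39.1% and 3.02% of all genes were higher. Quantile normalization gave 2 higher in 6 h mice, 3 in 24 h mice and 4 in 72 h mice, beside 12.4%, 15.9% and 32.1% of all genes. It gave 0 higher and 0 lower for 24 h against 6 h, beside 2.78% and 2.08%. It also took Slc25a30 to -0.045 and Slc25a36 to -0.013 at 72 h, and put the carriers at 1.24% of all FPKM in sham mice, 1.21% at 10 min, 1.24% at 1 h and 0.680% at 72 h. For 24 h against 6 h, 1 fit for all 18 mice gave 10 higher and 8 lower (4848 and 1002 of 13333 genes), no filter gave 1 and 0 (976 and 131 of 18249), and the replicate block gave 0 and 0 (1 and 0 of 13328 genes by limma; 10 carriers had an unadjusted p under 0.05). The mice share only a number, since nothing in the labels pairs them and the deviations of same-numbered mice had correlations of -0.327 to 0.415 (median -0.017). The replicate block moved no other count of calls by over 1.5 times. Leaving out 1 mouse at a time gave 0 to 1 higher at 10 min, 1 to 3 higher and 3 to 15 lower at 6 h, 1 to 4 higher and 1 to 13 lower at 24 h, 0 to 3 higher and 0 to 3 lower for 24 h against 6 h, and 4 to 7 higher and 7 to 13 lower for 72 h against 24 h. Over all genes it gave 0 to 47 higher at 10 min, and 763 to 1786 higher and 852 to 2894 lower at 6 h. At 24 h 1262 to 4043 genes were higher and 366 to 1796 lower. For 24 h against 6 h 1 to 1745 were higher and 1 to 354 lower, and for 72 h against 24 h 2802 to 4818 and 1037 to 2304. Of the named carriers' values under these omissions, 238 kept their direction and call and 80 kept the direction only. The cause of these shifts was not tested. With 3 mice a group and FPKM without counts, small differences of low carriers could not be resolved, and whether the mice of a group were independent of a shared batch is not given.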
